A study of Mus musculus with 2 samples.

Results

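The messenger RNA levels of 10 genes of the KEAP1-NRF2 pathway were compared between mouse fibro-adipogenic progenitors (FAPs) that had received platelet-rich plasma (PRP) and FAPs that had received vehicle. They were 4 regulators of the pathway (Nfe2l2, Keap1, Bach1 and Mafg), the KEAP1-binding autophagy receptor gene Sqstm1, and 5 genes of detoxification (Nqo1, Abcc1, Abcc4, Cbr1 and Ephx1). The genes were selected on pathway knowledge and on the FPKM of these same libraries, so their values are given as a description with no test. All 10 were among the 44291 genes of the deposited tables.

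FAPs are mesenchymal cells of skeletal muscle that can become adipocytes. The cells were primary FAPs of wild-type (WT) mice, given PRP or vehicle and then kept in adipogenic induction medium, with 1 RNA-seq library per treatment. Both groups therefore shared the medium, in which insulin (10 μg/ml), dexamethasone (0.25 μM) and IBMX (0.5 mM) were added to DMEM that held FBS at 20%. The treatment is called PRP after the sample labels, although the study's own text speaks of exosomes purified from PRP that young human donors gave. Dexamethasone and IBMX act on many genes and were present in both libraries, and the time in the medium is not given in the labels. Since each treatment had a single library, no difference has a check by replicates.

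NRF2, the product of Nfe2l2, is a bZIP transcription factor that is held low in resting cells by KEAP1, an adaptor that brings it to a CUL3 ubiquitin ligase. When electrophiles or oxidants modify KEAP1, NRF2 escapes degradation, pairs with a small Maf protein and binds antioxidant response elements beside genes of glutathione synthesis, thioredoxin recycling, heme breakdown and detoxification. BACH1 binds the same elements with the same partners and represses them, and SQSTM1 (p62) can draw KEAP1 into autophagy. Much of this control acts on protein, which RNA levels do not show.

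Levels are in FPKM, that is reads scaled by exon length and library size, and a difference is log2(PRP FPKM + 1) minus log2(control FPKM + 1). Where 2 values stand side by side, the PRP library comes first and the control library second. The comparison was limited to genes whose FPKM averaged at least 1 over the 2 libraries, which left 13401 genes and all 10 members. The PRP library held 40120843 assigned reads and the control library 34139741. Brackets after a ratio hold its exact binomial 95% interval, which covers counting error only and compares these 2 libraries, not the treatments. Of the 10 genes, 9 were higher in the PRP library and 1 was lower, where 50.9% of all genes compared were higher. At least 1.5-fold higher on the log2(FPKM + 1) scale were 3 members, Nfe2l2, Sqstm1 and Abcc1, against 6.15% of all genes, and none was at least 2-fold higher, against 2% of all genes. The interval lay above 1 for 8 members, where 26.1% of the 12369 genes with an interval did so. It lay below 1 for Ephx1 alone among the members, against 26.1% of genes, and it included 1 for Cbr1. The median difference was 0.41 over the members and 0.01 over all genes compared. Abcc1 was the member nearest above the 1.5-fold limit, with a difference of 0.73, and Nqo1 was the nearest below it, with 0.54.

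**Figure D1:**
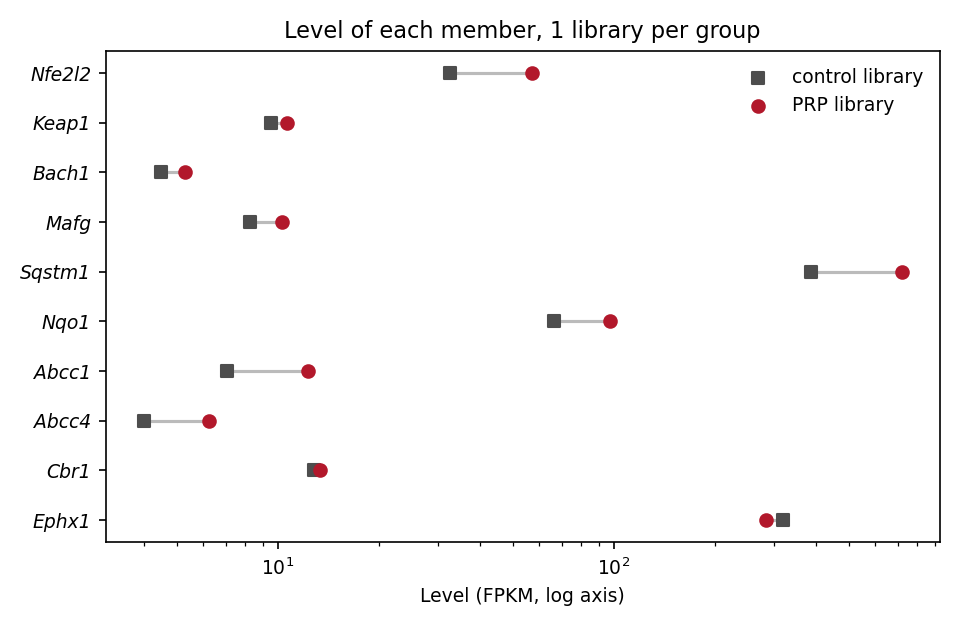
Level of the 10 genes in FPKM (log axis), with a square for the control library and a circle for the PRP library of each gene, 1 library per group. Sqstm1 lies farthest right, from 386.2 to 719.5 FPKM, and Ephx1 alone has its circle left of its square.

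The regulators were led by Nfe2l2. Nfe2l2 (ENSMUSG00000015839, chr2:75675513-75704641, minus strand), which encodes NRF2 itself, was at 57.0 and 32.5 FPKM, a ratio of 1.75 [1.66 to 1.85] from 8675 and 4210 reads. Its difference of 0.79 was larger than that of 96.7% of the genes compared. In order of level it stood at rank 960 of 44291 genes in the PRP library and at rank 1656 in the control library.

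Keap1 (ENSMUSG00000003308, chr9:21229730-21239361, minus strand), the gene of the NRF2 inhibitor, was at 10.6 and 9.51 FPKM. The ratio was 1.12 [1.01 to 1.23], from 1998 and 1524 reads, so its interval began just above 1. Of its exon bases, 10.9% overlap the gene Gm16754 on the opposite strand, which was at 10.5 and 9.34 FPKM, and the sources used here do not state whether reads were counted by strand. The level of Nfe2l2 over that of Keap1, both per length, was 5.37 with PRP and 3.42 without it.

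Bach1 (ENSMUSG00000025612, chr16:87698945-87733346, plus strand), the gene of the competing repressor, was the lowest of the regulators, at 5.30 and 4.49 FPKM. Its ratio was 1.18 [1.05 to 1.33]. Repressor and activator genes thus were both higher in the PRP library, with the interval of Bach1 wholly below that of Nfe2l2, and the level of Nfe2l2 over that of Bach1 was 10.7 against 7.23.

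Mafg (ENSMUSG00000051510, chr11:120625117-120633600, minus strand), 1 of the 3 small Maf genes whose products pair with NRF2 and with BACH1, was at 10.3 and 8.27 FPKM, a ratio of 1.24 [1.14 to 1.36]. The other small Maf genes, which are no members, were both more abundant than Mafg and farther apart between the libraries. Maff was at 140.1 and 68.2 FPKM, a ratio of 2.05 [1.97 to 2.14], and Mafk at 42.8 and 21.1 FPKM, a ratio of 2.03 [1.91 to 2.16]. The 3 genes summed to 193.2 and 97.6 FPKM, and Mafg made up 5.32% and 8.47% of that sum. Nfe2l1, which encodes the related factor NRF1, was lower in the PRP library, at 114.1 against 135.5 FPKM, a ratio of 0.842 [0.822 to 0.864]. In both libraries Nfe2l1 had a higher FPKM than Nfe2l2, and the gap was narrower in the PRP library.

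**Figure D2:**
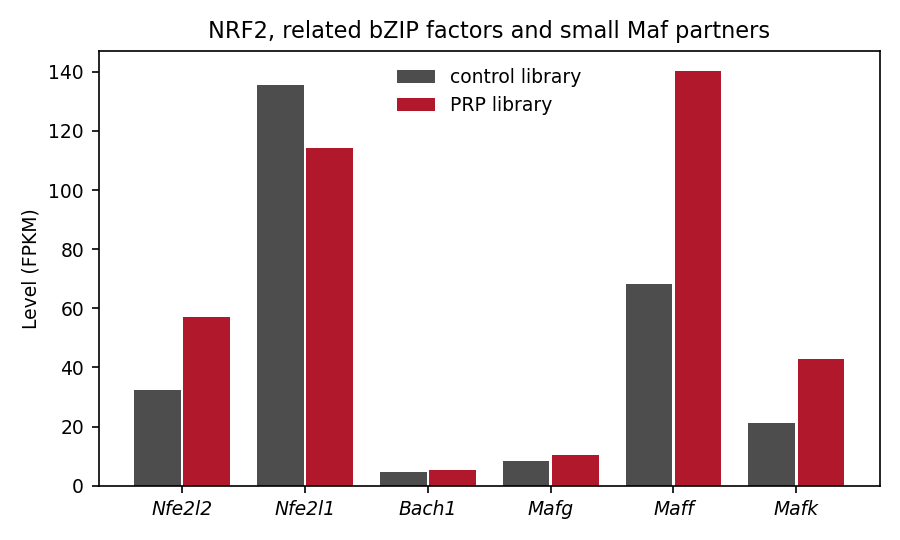
Level in FPKM (bars from 0) of Nfe2l2, the related factor gene Nfe2l1, the repressor gene Bach1 and the 3 small Maf genes, with 1 library per bar. Maff is the tallest bar of the PRP library at 140.1 FPKM and Nfe2l1 that of the control library at 135.5 FPKM, while Bach1 and Mafg stay at or below 10.3 FPKM in both.

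Sqstm1 (ENSMUSG00000015837, chr11:50199366-50210827, minus strand) encodes p62, a receptor that carries ubiquitinated cargo into autophagosomes. It was the most abundant of the 10 genes and had the largest ratio among them. Its level was 719.5 FPKM in the PRP library, at rank 44 of all genes, and 386.2 FPKM in the control library, at rank 112. The ratio was 1.86 [1.83 to 1.89] from 96871 and 44251 reads, so the counting error was small, and its difference of 0.90 exceeded that of 97.5% of the genes compared. Over the level of Keap1, that of Sqstm1 was 67.8 with PRP and 40.6 without it. Of its exon bases, 17.3% overlap Mrnip on the opposite strand, which was at 1.42 and 0.675 FPKM.

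The gene starts were read for the motif that NRF2 binds. RefSeq promoter windows (GRCm38.p6) of 250 bases before to 50 bases after the start were found for 9 of the 10 members, as 10 windows, since Abcc4 has 2. The core of the antioxidant response element was searched as TGACNNNGC on both strands, and 12.4% of all 32851 windows hold it. It was found in 4 of the 10 windows of the members, those of Nfe2l2 and Mafg and both of Abcc4. The windows below are all on the minus strand, written 5′ to 3′, and show where these matches lie. The window of Nfe2l2 is given whole and those of Mafg and Abcc4 as the match with 20 bases on each side, with the core in capitals.
Nfe2l2, chr2:75704614-75704913: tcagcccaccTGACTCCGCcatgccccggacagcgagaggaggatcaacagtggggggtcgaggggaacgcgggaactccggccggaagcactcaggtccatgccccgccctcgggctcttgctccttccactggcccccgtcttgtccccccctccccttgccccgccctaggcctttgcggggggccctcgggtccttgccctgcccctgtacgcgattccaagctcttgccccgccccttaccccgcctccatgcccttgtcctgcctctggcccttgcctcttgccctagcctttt
Mafg, chr11:120633741-120633789: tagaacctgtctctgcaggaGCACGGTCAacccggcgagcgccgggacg
Abcc4, upstream start, chr14:118706216-118706264: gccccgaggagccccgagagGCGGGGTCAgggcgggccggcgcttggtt
Abcc4, start inside the gene, chr14:118676926-118676974: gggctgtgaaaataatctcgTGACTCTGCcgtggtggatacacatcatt

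The match of Nfe2l2 begins 240 bases before the start and reads TGACTCCGC on the strand of the gene. That of Mafg begins 222 bases before the start, and those of Abcc4 begin 25 and 23 bases before their starts. In Mafg and at the upstream start of Abcc4 the core lies on the other strand, so the capitals read GCACGGTCA and GCGGGGTCA, the reverse complement of the motif. The looser core TGANNNNGC, which includes every match of the stricter one, was in 5 of the 10 windows, that of Keap1 added, and in 41.3% of all windows. The AP-1 motif TGANTCA was in no window of the members and in 7.81% of all. The windows of Sqstm1 and Nqo1 hold neither core. These are matches of letters in short windows, and elements farther away were not searched.

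A further motif, the GC box GGGCGG to which SP1 binds, was chosen after the windows had been read. It was in 7 of the 10 windows (Nfe2l2, Keap1, Bach1, Sqstm1, Nqo1, the upstream start of Abcc4 and Ephx1) and in 35.7% of all windows. The window of Bach1 holds 4 boxes, those of Nfe2l2, Sqstm1 and Abcc4 hold 3 each, and those of Keap1, Nqo1 and Ephx1 hold 2 each. The window of Sqstm1 is shown because it is the most abundant member, with its boxes in capitals on either strand as GGGCGG or CCGCCC.
Sqstm1, chr11:50210771-50211070, minus strand: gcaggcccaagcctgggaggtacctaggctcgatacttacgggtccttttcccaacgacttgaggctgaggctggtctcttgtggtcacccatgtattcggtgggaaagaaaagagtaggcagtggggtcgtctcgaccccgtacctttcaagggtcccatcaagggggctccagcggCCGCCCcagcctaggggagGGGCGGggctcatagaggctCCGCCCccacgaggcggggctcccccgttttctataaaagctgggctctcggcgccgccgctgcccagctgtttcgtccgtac

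Among the detoxification genes, Nqo1 (ENSMUSG00000003849, chr8:107388225-107403206, minus strand) is the classical NRF2 target and encodes a quinone reductase that uses NADH or NADPH. It was at 97.2 and 66.5 FPKM, a ratio of 1.46 [1.38 to 1.55] from 6055 and 3528 reads. Its difference of 0.54 exceeded that of 92.8% of the genes compared. Its relative Nqo2 was at 7.76 and 8.29 FPKM, and the interval of its ratio, 0.834 to 1.05, included 1. Of the exon bases of Nqo2, 18.9% overlap exons of another gene, which can share its reads.

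Abcc1 (ENSMUSG00000023088, chr16:14361558-14475737, plus strand) encodes MRP1, a membrane pump that exports glutathione conjugates and leukotriene C4. It was at 12.3 and 7.04 FPKM, a ratio of 1.75 [1.65 to 1.85] from 7459 and 3626 reads. Abcc4 (ENSMUSG00000032849, chr14:118482692-118706219, minus strand) encodes MRP4, a pump for cyclic nucleotides and prostaglandins, and was at 6.23 and 3.98 FPKM, a ratio of 1.56 [1.39 to 1.76]. Both transporter genes were thus higher in the PRP library, with overlapping intervals. Per length, Abcc1 was 1.98 times as abundant as Abcc4 in the PRP library and 1.77 times in the control library.

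Of the 10 family genes measured, 4 passed the filter on low values, and besides Abcc1 and Abcc4 these were Abcc5 and Abcc3, both lower in the PRP library. Abcc5, also an exporter of cyclic nucleotides, was at 9.97 and 13.5 FPKM, a ratio of 0.739 [0.697 to 0.783]. Abcc3, which encodes the bile salt and glucuronide exporter MRP3, was at 0.980 and 1.47 FPKM, a ratio of 0.669 [0.517 to 0.863]. Abcc3 was near the filter on low values. The intervals of Abcc3 and Abcc5 lay wholly below those of Abcc1 and Abcc4, but these 2 members were selected on these same libraries.

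Cbr1 and Ephx1 had the smallest ratios of the members. Cbr1 (ENSMUSG00000051483, chr16:93605853-93610505, plus strand), a carbonyl reductase gene, was at 13.3 and 12.8 FPKM, a ratio of 1.04 [0.928 to 1.16], so no difference was detectable at this depth. Its relative Cbr3 was at 13.3 and 5.84 FPKM, a ratio of 2.28 [1.85 to 2.83] that lay wholly above the interval of Cbr1. With PRP the 2 carbonyl reductase genes had nearly the same FPKM, and without it Cbr3 was the lower.

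Ephx1 (ENSMUSG00000038776, chr1:180976210-181020904, minus strand) encodes the microsomal epoxide hydrolase, which opens epoxides to diols. It was the only member that was lower in the PRP library, at 283.9 FPKM against 317.9 FPKM in the control library, a ratio of 0.893 [0.869 to 0.917] from 22213 and 21166 reads. It was the second most abundant member in both libraries. The soluble enzyme's gene Ephx2 was at 3.98 and 4.46 FPKM, and its ratio of 0.894 [0.729 to 1.10] had an interval that included 1.

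**Figure D3:**
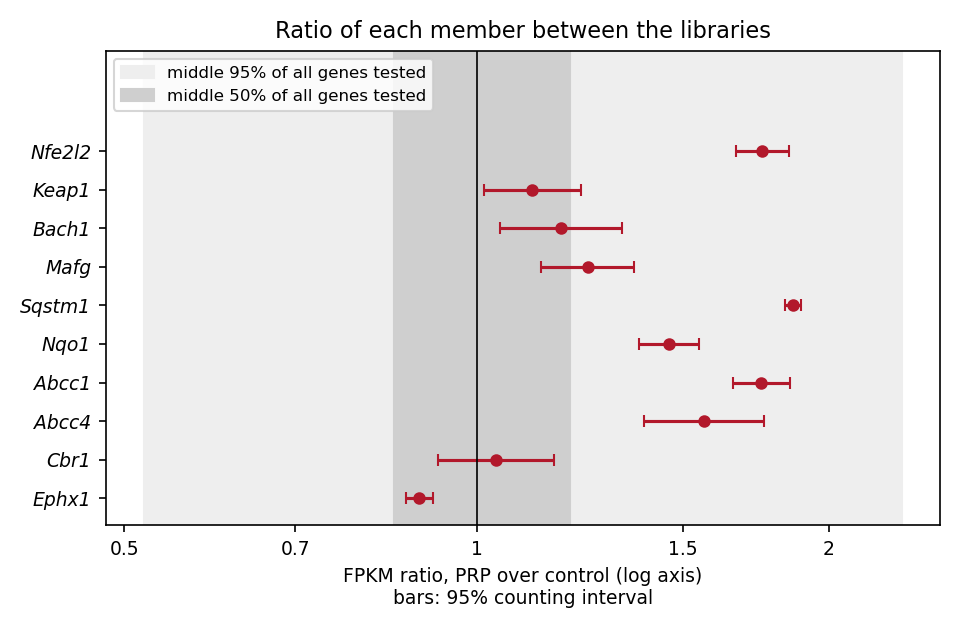
Ratio of FPKM, PRP over control (log axis), of each member with its 95% counting interval, over bands for the middle 50% and the middle 95% of all genes compared. All 10 members lie within the middle 95% band, from 0.519 to 2.31, and Nfe2l2, Mafg, Sqstm1, Nqo1, Abcc1 and Abcc4 lie above the middle 50% band, from 0.849 to 1.20.

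Other genes of the pathway, in lists written from general knowledge with earlier results of these data known, were divided between higher and lower values. The list of other NRF2 regulators and partners had 15 of 19 genes compared, of which 8 were higher and 7 lower with PRP. At least 1.5-fold higher were 2, the small Maf genes Maff and Mafk, against 6.15% of all genes. Cul3, which encodes the scaffold of the ligase that KEAP1 serves, was at 47.4 and 47.8 FPKM, a ratio of 0.991 [0.950 to 1.03]. The lowest ratios of the list were those of Btrc, which encodes an adaptor of a KEAP1-independent route of NRF2 degradation, at 0.581 [0.506 to 0.667], and of Dpp3, which encodes a KEAP1-binding peptidase, at 0.778 [0.697 to 0.868]. Btrc was near the filter on low values, at 1.03 and 1.78 FPKM. Its more abundant relative Fbxw11 was at 12.4 and 11.5 FPKM, a ratio of 1.07 [0.981 to 1.18] whose interval included 1. The median difference of the list was 0.10, and the interval of the ratio included 1 for 5 of its genes.

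Genes of glutathione and thioredoxin metabolism had a median difference of 1.01, against 0.41 for the members. Of 12 genes compared, 11 were higher in the PRP library, 7 by at least 1.5-fold and 6 by at least 2-fold. The shares of all genes compared were 50.9%, 6.15% and 2%, in the same order. Slc7a11, the gene of the cystine importer, was at 7.98 and 0.766 FPKM, a ratio of 10.4 [8.96 to 12.2]. Srxn1, which encodes the sulfiredoxin that repairs peroxiredoxins, was at 226.0 and 65.7 FPKM, a ratio of 3.44 [3.31 to 3.57]. The others at least 2-fold higher were Gsta4, a glutathione transferase gene, with a ratio of 2.95, Gclc, which encodes the catalytic subunit of glutamate-cysteine ligase, with 2.79, the thioredoxin reductase gene Txnrd1, with 2.49, and Prdx1, with 2.43. Prdx1 has near-identical processed pseudogenes that can share its reads. The glutathione reductase gene Gsr was at 7.29 and 7.40 FPKM, the only 1 of the 12 that was not higher.

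Among 7 heme and iron genes, 4 were higher with PRP and 3 lower, and the median difference was 0.20. Hmox1, the heme oxygenase gene that BACH1 represses, was at 424.0 and 220.6 FPKM, a ratio of 1.92 [1.87 to 1.98], and Blvrb, a biliverdin reductase gene, at 16.0 and 7.54 FPKM, a ratio of 2.12 [1.87 to 2.40]. The ferritin light chain gene Ftl1 was at 145.1 and 205.5 FPKM and the ferrochelatase gene Fech at 5.58 and 6.41 FPKM. The value of Ftl1 is uncertain, since it has near-identical copies and 34.6% of its exon bases overlap exons of other genes. Hmox1 and Sqstm1, both NRF2 targets of high abundance, had ratios whose intervals overlapped.

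Among 6 genes that supply NADPH, 3 were higher and 3 lower, and the interval of the ratio included 1 for 2 of them. Taldo1, the transaldolase gene, was at 54.7 and 17.5 FPKM, a ratio of 3.12 [2.86 to 3.41], and Pgd, a dehydrogenase gene of the pentose phosphate pathway, had a ratio of 1.27. Me1, which encodes malic enzyme, had a ratio of 0.796 and Idh1 one of 0.879. NQO1 and the reductases of the glutathione and thioredoxin systems draw on NADPH.

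The other detoxification targets had 13 of 15 genes compared, 5 higher and 8 lower, with a median difference of -0.07. The interval of the ratio included 1 for 7 of the 13. The largest ratio was that of Adh7, a retinol and alcohol dehydrogenase gene, at 6.47 and 0.928 FPKM, a ratio of 6.97 [5.32 to 9.27], and the next were those of Osgin1, at 2.48, and Cbr3. Over these lists and those of ABCC transporters, aryl hydrocarbon receptor genes and autophagy receptors, 38 of 67 pathway genes compared that are no members were higher in the PRP library. Of all genes compared, 50.9% were higher.

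**Figure D4:**
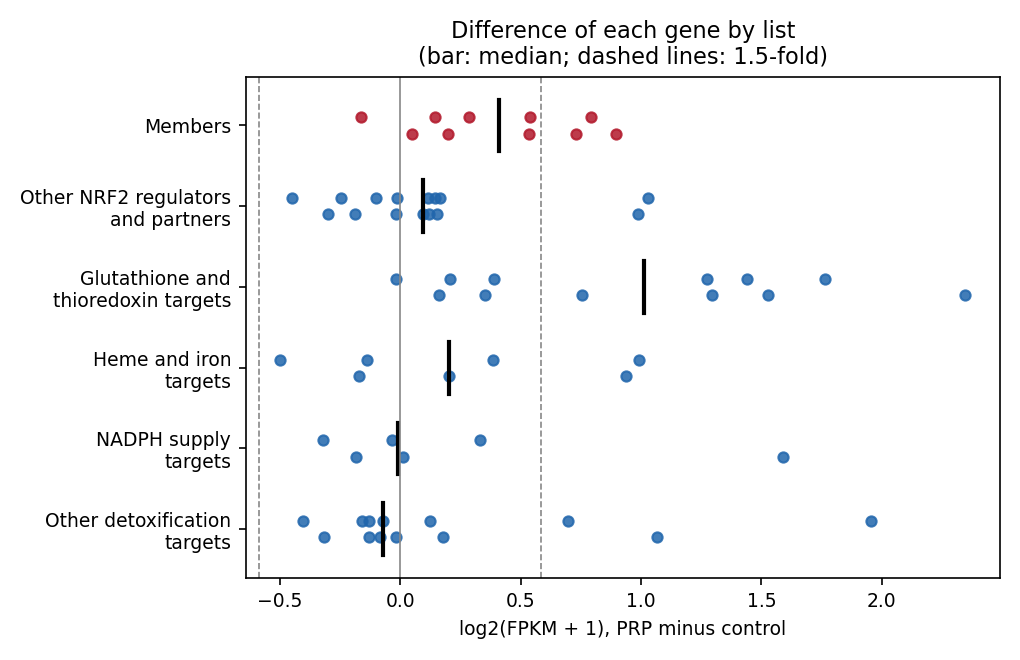
Difference in log2(FPKM + 1), PRP minus control, of each gene compared, for the 10 members and 5 lists of other NRF2 pathway genes, with the median of each list as a bar and dashed lines at 1.5-fold. The median is 1.01 for the glutathione and thioredoxin targets and 0.41 for the members, and it lies between -0.07 and 0.20 for the other lists.

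The miRNAs let-7f-5p and miR-16-5p, which the study takes up as cargo of the exosomes, pair with target transcripts through bases 2 to 8. Their mouse mature sequences from RefSeq are printed with these seed bases in capitals.
let-7f-5p: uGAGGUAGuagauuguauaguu
miR-16-5p: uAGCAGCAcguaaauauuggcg
The seed match of let-7f-5p, CTACCTC, was searched in the longest annotated 3′ UTR (GENCODE M21, protein-coding transcripts) of each gene compared. It was in 9.86% of 10292 genes and in 2 members, Bach1 and Mafg. The match of miR-16-5p, TGCTGCT, was in 24.6% of the genes and in 2 members, Sqstm1 and Abcc4. The 5 sites are given 5′ to 3′ as 22 bases of exon with the seed match in capitals.
Bach1, let-7f-5p, chr16:87731986-87732007, plus strand: agccaatggatttcCTACCTCa
Bach1, let-7f-5p, chr16:87732279-87732300, plus strand: tacaagtaactacaCTACCTCa
Mafg, let-7f-5p, chr11:120626166-120626187, minus strand: aggccacttccctgCTACCTCc
Sqstm1, miR-16-5p, chr11:50199560-50199581, minus strand: cagggctggtgcctTGCTGCTc
Abcc4, miR-16-5p, chr14:118483991-118484012, minus strand: ctgtcaccatgggcTGCTGCTt

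The 4 members with a site had ratios between 1.18 for Bach1 and 1.86 for Sqstm1. The 6 without one had ratios between 0.893 for Ephx1 and 1.75 for Nfe2l2, so the 2 ranges overlapped. The UTRs differed in length, from 225 bases for Ephx1 to 4167 for Mafg, and longer ones can hold more matches of any 7 letters. A match of a seed is not a measured site.

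Markers of cell types were read beside these values. FAP markers were present, and all 8 that passed the filter were lower with PRP, where 6586 of the 13401 genes compared were lower. Over the 10 markers the summed level was 493.9 against 764.3 FPKM, most of it from Col1a1, Col1a2 and Thy1. The ratios nearest 1 among the 8 were those of Ly6a, at 0.902, and Dcn, at 0.901. Dpt, the dermatopontin gene, was the only marker at least 2-fold lower, at 18.8 and 50.2 FPKM, a ratio of 0.374 [0.341 to 0.410]. Col1a1, a collagen gene, was at 118.6 and 218.7 FPKM and Thy1, a surface antigen gene, at 155.6 and 212.1 FPKM, while Lum and Pi16 were near 0. In bulk RNA, fewer cells of a type and less RNA per cell cannot be told apart. Of 6 adipocyte markers compared, 4 were higher and 2 lower, but the interval of the ratio included 1 for 3 of them. Pparg, the gene of the main adipogenic transcription factor, had a ratio of 1.33 [1.15 to 1.53] and Fabp4, a fatty acid carrier gene, one of 1.21 [1.15 to 1.27]. For Pparg the study reports the other direction by RT-PCR, with less of its mRNA in FAPs given exosomes of young donors. From its transcriptome comparison of such FAPs with vehicle, the study also reports PPAR signaling and adipogenesis-related pathways as lower. Lpl, the lipoprotein lipase gene, was at 67.4 and 83.3 FPKM, a ratio of 0.810 [0.791 to 0.828]. The pan-leukocyte marker Ptprc was at 0.0109 and 0.0192 FPKM, and the 6 macrophage markers summed to 10.9 and 10.8 FPKM, mostly Lyz2 at 4.91 and 7.57 FPKM and Cd68 at 4.56 and 2.31 FPKM. Of 5 endothelial markers, Tek, at 4.73 and 3.56 FPKM, and Kdr, with a ratio of 2.82, passed the filter, with Pecam1 at 0.188 and 0.0470 FPKM. The satellite cell gene Pax7 and the platelet gene Ppbp were at 0 in both libraries, the highest platelet marker, Itgb3, was at 1.35 and 1.14 FPKM, and the muscle gene Des at 2.91 and 3.39 FPKM. The study's PRP came from human donors, while reads were aligned to the mouse genome. These platelet values therefore do not measure RNA carried over from donor platelets. The part of the lower FAP markers in the differences of the members was not tested.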

How the data were processed

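Stranded mRNA libraries, 2 in all and 1 per treatment, were sequenced. Per the submitters' processing notes and the study's methods, the authors trimmed reads with fastp 0.23.4, aligned them to mm10 with STAR 2.5.3a and counted them with featureCounts. The deposited values are FPKM. The annotation release, the use of strand in counting and the computation of FPKM are not given in the sources used here.

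Differences were taken on log2(FPKM + 1), which understates changes of low genes, for a mean FPKM of at least 1. No test was possible with 1 library per group. With GENCODE M21 exon lengths, 93.7% of the genes above 0 with a length in each library came out as whole reads within 0.001 reads. Mates appeared to be counted separately, since 79.3% and 80.3% of genes with up to 8 reads had even numbers, so intervals are exact Clopper-Pearson 95% binomial intervals on reads divided by 2. They cover counting error only, since PCR duplicates are not known. The script was tested on simulated data. Python 3.11.15, NumPy 2.4.6, pandas 2.3.3, SciPy 1.17.1 and matplotlib 3.10.9 were used.

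The 10 members and the gene lists were chosen with earlier results of these data known. Besides the members, the 2 genes most different in each direction of each pathway list, each gene of these lists at least 2-fold different and, of each cell type list, the marker with the highest FPKM were to be named. Nqo2, Nfe2l1, Cul3, Fbxw11, Ephx2, Osgin1 and the further markers were named after their values were seen. Coordinates are those of M21 on GRCm38 (mm10). Alternatives were other pseudocounts, filters and scalings, reads in place of fragments and a looser motif.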

Additional observations from a re-analysis of the deposited data

How the results depend on the processing

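The median difference of the members, 0.41, became 0.2629 with a pseudocount of 5 and 0.5359 with a filter at a mean FPKM of 5, which left 9 members, without Bach1. In all, 69 of 69 alternative differences of the members kept the sign of the reported one, over pseudocounts, filters and scalings. A change of pseudocount or filter cannot reverse a sign, so only the scalings could have done so. At least 1.5-fold higher were 4 members with a pseudocount of 0.1, against 9.21% of all genes, and 2 with a pseudocount of 5, against 2.37% of all genes. The median over all genes ran from -0.02 to 0.01. The difference of Cbr1 ran from 0.02 to 0.05. Counting reads in place of fragments gave 9 members whose interval did not include 1, the same number as reported. This choice narrows every interval, so only the result for Cbr1 could have changed. The median of the other NRF2 regulators and partners was -0.0001 without the filter on low values, in place of 0.10. No paired analysis was possible because the series holds a single library per treatment, and leaving out a library was not possible for the same reason. The depth limited what could be said of Cbr1, whose difference was within counting error.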

Other observations

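SQSTM1 belongs to the selective autophagy receptors, which tie cargo to ATG8 proteins on the autophagosome. The other 11 genes of receptors and ATG8 proteins were all compared, and 6 were higher with PRP and 5 lower, at a median difference of 0.05 and with none past 1.5-fold. Gabarapl1, an ATG8 gene, was at 40.9 and 29.8 FPKM, a ratio of 1.37 [1.27 to 1.49], and Gabarapl2 had a ratio of 1.27. Of the exon bases of Gabarapl1, 28.3% overlap exons of another gene, which can share its reads. Gabarap was at 50.4 and 62.4 FPKM, a ratio of 0.808 [0.758 to 0.861], and Wdfy3, which encodes the scaffold ALFY, had a ratio of 0.858. All 11 ratios lay below that of Sqstm1, a member selected on these same libraries.

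The aryl hydrocarbon receptor shares Nqo1 as a target with NRF2. Of 6 genes of that receptor, 3 passed the filter on low values. Tiparp, a target that represses the receptor, was at 4.47 and 3.02 FPKM, a ratio of 1.48 [1.25 to 1.75]. Cyp1b1, a monooxygenase gene and target of the receptor, was at 11.0 and 14.1 FPKM, a ratio of 0.781 [0.723 to 0.843]. Arnt, the gene of the receptor's partner, was at 17.8 and 18.0 FPKM. Ahr itself was at 0.408 and 0.190 FPKM and the target Cyp1a1 at 0.0894 and 0.0210 FPKM.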
